A study of Mus musculus with 12 samples.

Results

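The CD300 receptor family was examined as 6 genes, Cd300a, Cd300c2, Cd300e, Cd300lb, Cd300ld and Cd300lf, which were picked by their symbols from 56748 genes listed in the count matrix of M2-like polarized bone marrow-derived macrophages (BMDM). All 6 were among the 15033 genes that passed the filter on low counts. The macrophages came from C57BL/6J mice, were differentiated with 20 ng/mL M-CSF (72 hours, then 48 hours after a partial change of medium) and were polarized with 10 ng/mL IL4 for 48 hours, which holds for every group. They were then cultured for 72 hours under 4 conditions with 3 libraries each. The untreated control received unsupplemented medium. The eGFP supernatant came from YUMM5.2 eGFP cells, a mouse melanoma line with Braf activation and p53 inactivation, after 72 hours of 1 µg/mL doxycycline (Dox). The Ifnb1eGFP supernatant came from YUMM5.2 cells in which Dox induces Ifnb1 and eGFP, under the same Dox treatment, and was brought to 1500 pg/mL IFNβ with medium. An equal dilution was used for the eGFP supernatant, so that both supernatants carried Dox residues and tumor cell products, whereas recombinant IFNβ (rIFNβ) was given at the same concentration in medium alone. Whether the 3 libraries of a condition came from separate mice, and whether libraries of the same number share a mouse, is not given in the sources used here.

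CD300 proteins are single-domain immunoglobulin-like receptors of myeloid cells, and several of them bind phospholipids and sphingolipids such as the phosphatidylserine and ceramide exposed on dying cells. The family is paired. Cd300a and Cd300lf encode receptors with long tails whose tyrosine-based inhibitory motifs recruit the phosphatases SHP-1 (Ptpn6) and SHP-2 (Ptpn11). Cd300lb, Cd300ld, Cd300c2 and Cd300e encode receptors with short tails that signal through adaptors such as DAP12 (Tyrobp) and the Fc receptor gamma chain (Fcer1g). In mouse macrophages these receptors are known for tuning phagocytosis, Toll-like receptor signals and cytokine release.

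The members lie in a cluster of 11 CD300 genes spanning 256 kb of chromosome 11 (GRCm39, positions from GENCODE). Cd300a (ENSMUSG00000034652, chr11:114768840-114795480) is on the plus strand and the other members are on the minus strand. These are Cd300lb (ENSMUSG00000063193, chr11:114813607-114825212), Cd300ld (ENSMUSG00000034641, chr11:114873099-114880748), Cd300c2 (ENSMUSG00000044811, chr11:114887546-114895068), Cd300e (ENSMUSG00000048498, chr11:114942743-114957500) and Cd300lf (ENSMUSG00000047798, chr11:115007040-115024818). The promoter windows below run from 250 bases before to 30 bases after the start of the canonical transcript. They are shown for Cd300lf and Cd300e, the members with the highest fold changes, for Cd300c2, which was not called in either IFNβ comparison, and for Cd300ld beside its relative Cd300ld3, which moved in opposite directions. Capitals mark matches on either strand to the interferon-stimulated response element (ISRE) core GAAANNGAA, the gamma-activated site (GAS) TTCNNNGAA and the PU.1 core GAGGAA.
Cd300lf, chr11:115024789-115025068, minus strand: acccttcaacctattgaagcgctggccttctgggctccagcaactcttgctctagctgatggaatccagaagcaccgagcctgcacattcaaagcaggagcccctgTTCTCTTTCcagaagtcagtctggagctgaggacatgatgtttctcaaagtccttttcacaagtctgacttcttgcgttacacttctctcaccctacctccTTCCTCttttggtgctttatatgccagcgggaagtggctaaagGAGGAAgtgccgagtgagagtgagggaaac
Cd300e, chr11:114957471-114957750, minus strand: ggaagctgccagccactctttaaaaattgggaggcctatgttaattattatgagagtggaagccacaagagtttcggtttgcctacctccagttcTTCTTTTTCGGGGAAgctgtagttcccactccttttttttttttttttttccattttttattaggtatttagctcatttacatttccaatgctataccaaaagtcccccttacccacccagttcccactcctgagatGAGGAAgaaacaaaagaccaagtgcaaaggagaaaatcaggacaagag
Cd300c2, chr11:114892677-114892956, minus strand: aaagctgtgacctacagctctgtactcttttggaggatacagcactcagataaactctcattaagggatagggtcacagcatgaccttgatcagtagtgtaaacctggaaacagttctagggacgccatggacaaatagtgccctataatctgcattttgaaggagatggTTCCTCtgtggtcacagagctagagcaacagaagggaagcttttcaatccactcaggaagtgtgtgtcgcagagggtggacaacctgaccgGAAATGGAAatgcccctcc
Cd300ld, chr11:114880719-114880998, minus strand: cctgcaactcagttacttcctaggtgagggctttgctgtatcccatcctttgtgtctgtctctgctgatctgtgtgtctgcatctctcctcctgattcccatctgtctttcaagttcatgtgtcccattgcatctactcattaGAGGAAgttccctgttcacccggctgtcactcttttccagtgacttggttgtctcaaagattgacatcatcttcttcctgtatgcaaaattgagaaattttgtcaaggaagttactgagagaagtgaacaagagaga
Cd300ld3, chr11:114939206-114939485, minus strand: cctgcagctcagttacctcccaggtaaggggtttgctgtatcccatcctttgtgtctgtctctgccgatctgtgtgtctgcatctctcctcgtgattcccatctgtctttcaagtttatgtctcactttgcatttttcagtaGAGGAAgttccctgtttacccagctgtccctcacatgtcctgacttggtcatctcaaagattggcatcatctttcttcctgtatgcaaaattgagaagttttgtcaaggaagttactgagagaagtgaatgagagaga

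Counting the first transcribed base as 0, the ISRE core was found in Cd300lf from -144 to -136, in Cd300e from -155 to -147 and in Cd300c2 after the start, from 11 to 19. The Cd300e match shares 3 bases with a GAS match from -149 to -141. Among 21770 promoters with this window, 8.28% hold the ISRE core and 8.4% hold the GAS letters. The ISRE core was not in the windows of Cd300a, Cd300lb and Cd300ld. The canonical starts of Cd300a (114780867) and Cd300c2 (114892706) lie inside the annotated genes, and windows at other annotated starts were not scanned. The PU.1 core, named after the macrophage lineage factor, is present in the windows of Cd300a, Cd300c2, Cd300e, Cd300ld and Cd300lf and in 25.5% of all promoters. The STAT6 site, whose TTC and GAA stand 4 bases apart, was in none of the 6 members' windows and in 6.47% of all promoters. Cd300ld and Cd300ld3 promoters were identical at 249 of 281 aligned columns (88.6%), and both hold the PU.1 core at nearly the same place. A match is a description of letters and is no evidence of binding.

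Library totals ranged from 31526034 to 45348457 estimated counts. Levels are given as CPM, the counts per 1000000 counts of the library after scaling by TMM factors. The summed level of 12 interferon-stimulated genes checked the treatment. It was 232 to 336 CPM in the untreated control, 13110 to 14570 CPM with Ifnb1eGFP supernatant and 13840 to 14500 CPM with rIFNβ. In the eGFP supernatant, replicate 2 stood apart at 1217 CPM, with 356 and 242 CPM in replicates 1 and 3. The fits against eGFP supernatant were therefore repeated without that library. Without it, the direction of every member called with Ifnb1eGFP supernatant and its call remained, and of the other genes named below 2 lost a call, Cd300ld5 and, for the averaged supernatant effect, Pilrb1. Each of 8 macrophage markers was above 1 CPM in every library. Their summed level was 14260 to 15400 CPM in the untreated control, 18110 to 18600 CPM in eGFP supernatant, 10550 to 10770 CPM with Ifnb1eGFP supernatant and 9847 to 10040 CPM with rIFNβ. This sum is dominated by Lyz2, which spanned 3441 to 12830 CPM over all libraries. Fcgr1 (48.8 to 1294 CPM) and Itgam (317 to 1627 CPM) also varied widely, whereas Adgre1 (1484 to 1836 CPM) and Csf1r (1023 to 1189 CPM) varied little. Of 6 genes of IL4 activation, Mrc1, Chil3, Retnla and Il4ra were measured well above 1 CPM, whereas Arg1 (0.208 to 0.877 CPM) and Ccl24 (0.0502 to 0.195 CPM) were near 0 in all conditions. CD300 receptors are also made by other myeloid cells. The neutrophil markers (8 genes, led by S100a8) summed to 4.9 to 6.39 CPM without IFNβ and to 0.297 to 1.09 CPM with it, the dendritic cell markers (8 genes) to 1.61 to 2.16 CPM and 0.422 to 0.9 CPM, and the mast cell and basophil markers (8 genes) to 0.455 to 1.97 CPM over all libraries. Among these markers S100a8 reached 196 counts in a library, Zbtb46 64, Kit 33, Cxcr2 31, Prss34 19, Clec9a 17 and Mcpt8 15, and the others had at most 10. Ly6g, Camp, Elane, Flt3, Siglech and Fcer1a had at most 3 counts in any library, and Tpsb2 had 0. The melanoma markers (6 genes) summed to at most 0.81 CPM. Fibroblast markers (5 genes) summed to 30.5 to 84 CPM, with overlapping ranges in the 4 conditions. Their part in the CD300 results was not tested. In bulk RNA, fewer cells of a type and less RNA per cell cannot be told apart.

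Compared per length, the receptors fell into abundant and scarce genes. In the untreated control the level per kilobase of exon was 378 ± 7.56 CPM per kb (SD, n = 3) for Cd300ld, 192 ± 5.57 for Cd300c2, 129 ± 5.79 for Cd300lb and 46.4 ± 0.972 for Cd300a. Cd300lf (0.519 ± 0.0488 CPM per kb) and Cd300e (0.373 ± 0.0481) were far below. The order Cd300ld, Cd300c2, Cd300lb, Cd300a, Cd300lf, Cd300e held in all 4 conditions. With Ifnb1eGFP supernatant, Cd300ld (217 ± 14.8 CPM per kb) and Cd300c2 (206 ± 14.4) overlapped, and all other neighbours in the order were apart in every condition. When the longest annotated transcript was taken as the length, Cd300c2 stood above Cd300ld in both IFNβ conditions, at 274 against 217 CPM per kb with Ifnb1eGFP supernatant and 253 against 216 with rIFNβ.

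**Figure D1:**
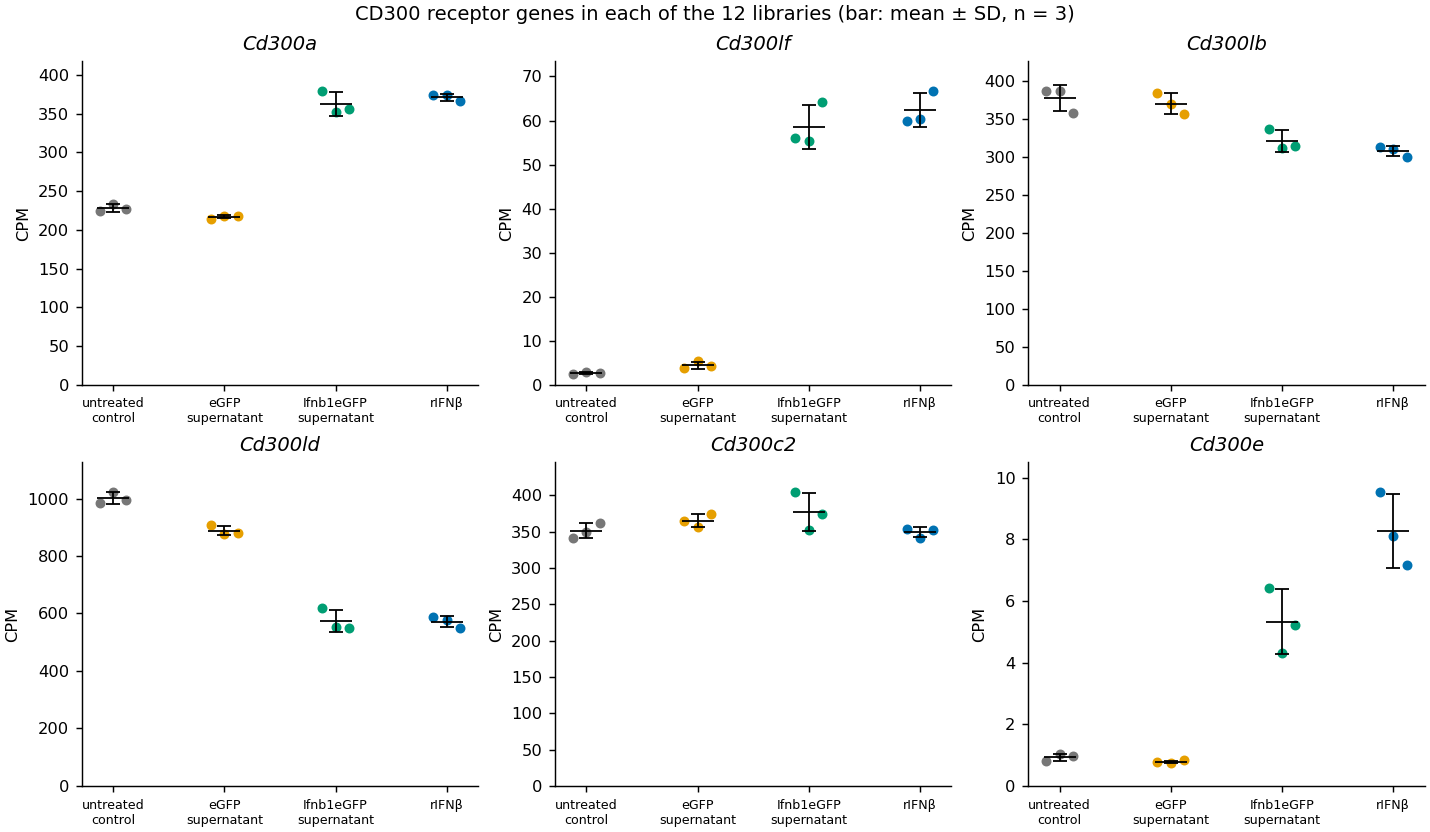
CPM (linear axis from 0) of the 6 CD300 members in each library, by condition, with the mean and SD of 3 libraries as black bars. Cd300lf and Cd300e are near 0 without IFNβ and reach 55.3 to 66.8 CPM and 4.32 to 9.55 CPM with it. Cd300ld falls below 620 CPM with IFNβ. Cd300c2 overlaps between Ifnb1eGFP and eGFP supernatant and between rIFNβ and the untreated control.

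To address how macrophages respond to tumor-derived IFNβ, Ifnb1eGFP supernatant was compared with eGFP supernatant, and for IFNβ alone, rIFNβ was compared with the untreated control. In each comparison 5 of the 6 members were called by edgeR's quasi-likelihood test at an adjusted p of at most 0.05. Cd300a, Cd300lf and Cd300e rose, and Cd300ld and Cd300lb fell. The background was high, since 55.1% of tested genes were called with Ifnb1eGFP supernatant (30.1% higher, 25% lower) and 55.3% with rIFNβ (30.7% higher, 24.6% lower). The count of called members is therefore not a result particular to the family, and the sizes are given gene by gene. Under the study's stricter thresholds (a log2 fold change of 2 or more in size, adjusted p of at most 0.01), 2 members, Cd300lf and Cd300e, were called higher in both comparisons, where 2.77% and 2.99% of all genes were. All 5 called members had groups that did not overlap, as had 32.4% of genes in the higher and 26.6% in the lower direction with Ifnb1eGFP supernatant and 36.4% and 29.7% with rIFNβ. The median log2 fold change of the 6 members was 0.40 and 0.34, beside 0.03 and 0.04 over all genes.

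Cd300lf, an inhibitory receptor for ceramide and phosphatidylserine, showed the highest fold change of the family. Its level was 2.48, 2.96 and 2.58 CPM in the untreated control (78 to 109 counts) and 3.71, 5.34 and 4.19 CPM with eGFP supernatant. With Ifnb1eGFP supernatant it was 56.1, 55.3 and 64.3 CPM, and with rIFNβ 59.9, 60.3 and 66.8 CPM. The libraries with IFNβ and those without did not overlap. The rise was 13.3-fold with Ifnb1eGFP supernatant (log2 fold change 3.73, SE 0.119, adjusted p = 8.27e-10) and 23.3-fold with rIFNβ (log2 fold change 4.54, SE 0.128, adjusted p = 3.16e-10). Without eGFP supernatant replicate 2, the first log2 fold change was 3.89, whereas that of the other members moved by at most 0.03. Cd300lf lies within Rab37, a Rab GTPase gene on the opposite strand, and whether the counting used strand is not given in the sources used here. Rab37 also rose, from 0.226 to 0.439 CPM with eGFP supernatant to 1.31 to 1.59 CPM with Ifnb1eGFP supernatant (log2 fold change 1.95, adjusted p = 4.18e-05), and had at most 65 counts in any library.

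Cd300a, the inhibitory receptor for phosphatidylserine and phosphatidylethanolamine, was already abundant and rose less. It was measured at 225, 234 and 226 CPM in the untreated control, 214 to 218 CPM in eGFP supernatant, 380, 351 and 355 CPM with Ifnb1eGFP supernatant and 373, 374 and 366 CPM with rIFNβ. The lowest library with IFNβ was well above the highest without it. The fold change was 1.67 (95% interval 1.57 to 1.78, adjusted p = 3.92e-08) with Ifnb1eGFP supernatant and 1.62 (1.53 to 1.73, adjusted p = 5.27e-08) with rIFNβ. In CPM this was a larger addition than that of Cd300lf, since mean Cd300a rose from 217 ± 1.98 to 362 ± 15.3 CPM (SD, n = 3) and mean Cd300lf from 4.41 ± 0.834 to 58.6 ± 4.95 CPM.

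Among the short-tailed receptors, Cd300e rose from a very low level. It was 0.795, 1.02 and 0.97 CPM in the untreated control and 0.783, 0.755 and 0.828 CPM in eGFP supernatant, which are 25 to 41 counts per library. With Ifnb1eGFP supernatant it was 6.42, 4.32 and 5.23 CPM, and with rIFNβ 9.55, 8.12 and 7.18 CPM. The rise was 6.73-fold (95% interval 5.13 to 8.83, adjusted p = 1.69e-07) and 8.84-fold (6.76 to 11.6, adjusted p = 4.56e-08). Even after the rise, Cd300e stayed at 2.13 ± 0.422 CPM per kb with Ifnb1eGFP supernatant, below the other members.

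Cd300ld, the most abundant member per length in the untreated control, fell. Its level was 986, 1024 and 994 CPM in the untreated control, 907, 877 and 881 CPM in eGFP supernatant, 620, 554 and 550 CPM with Ifnb1eGFP supernatant and 588, 576 and 550 CPM with rIFNβ. No library with IFNβ reached the level of a library without it. The fold change was 0.647 (95% interval 0.598 to 0.699, adjusted p = 1.11e-06) with Ifnb1eGFP supernatant and 0.571 (0.528 to 0.618, adjusted p = 1.27e-07) with rIFNβ.

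Cd300lb, a DAP12-coupled receptor linked to Toll-like receptor signals, fell slightly. It was 387, 387 and 358 CPM in the untreated control, 384, 369 and 356 CPM in eGFP supernatant, 337, 311 and 314 CPM with Ifnb1eGFP supernatant and 313, 310 and 300.1 CPM with rIFNβ. The groups did not overlap, although the gap between the lowest eGFP and the highest Ifnb1eGFP library was small. The fold change was 0.867 (0.804 to 0.935, adjusted p = 0.00433) with Ifnb1eGFP supernatant and 0.816 (0.756 to 0.88, adjusted p = 0.000372) with rIFNβ.

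Cd300c2, which couples to DAP12 and the Fc receptor gamma chain, was called in neither comparison. It ranged from 341 to 362 CPM in the untreated control, from 356 to 374 CPM in eGFP supernatant, from 353 to 405 CPM with Ifnb1eGFP supernatant and from 341 to 354 CPM with rIFNβ. These ranges overlap. The 95% interval of the fold change was 0.955 to 1.12 with Ifnb1eGFP supernatant and 0.919 to 1.08 with rIFNβ.

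**Figure D2:**
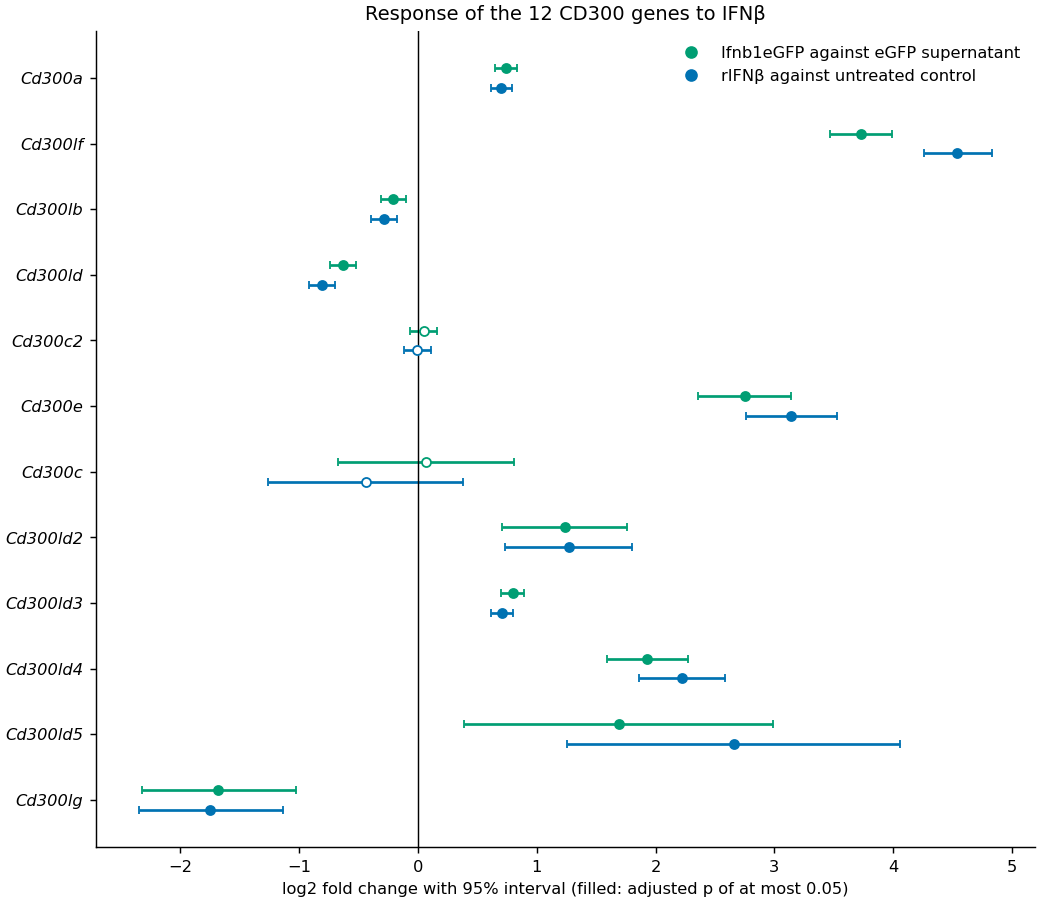
Log2 fold change with 95% interval for the 6 members and the 6 other CD300 genes in both IFNβ comparisons, with filled points for genes called at an adjusted p of at most 0.05. Cd300lf (3.73 and 4.54) and Cd300e (2.75 and 3.14) lie farthest to the right, Cd300ld and Cd300lb lie left of 0, and Cd300c2 and Cd300c are open in both.

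The other 6 CD300 genes in the files were all tested, and 5 of them were called in both IFNβ comparisons, beside 55.1% and 55.3% of all genes. Cd300lg, an endothelial-type family gene outside the cluster and 12.8 Mb away from it, fell from 0.778 to 1.02 CPM with eGFP supernatant to 0.152 to 0.397 CPM with Ifnb1eGFP supernatant (log2 fold change -1.68, adjusted p = 0.000519), at 7 to 57 counts per library over the 4 conditions. Cd300c, at 5 to 14 counts per library, was not called (log2 fold change 0.07, 95% interval -0.67 to 0.81). Cd300ld2, Cd300ld3, Cd300ld4 and Cd300ld5, the closest relatives of Cd300ld, rose, opposite to Cd300ld itself. Cd300ld3 was the abundant gene among them, with 348, 352 and 340 CPM in eGFP supernatant against 625, 598 and 581 CPM in Ifnb1eGFP supernatant (fold change 1.74, adjusted p = 3.24e-08), and 385 to 403 CPM in the untreated control against 622 to 650 CPM with rIFNβ (fold change 1.63, adjusted p = 7.2e-08). Cd300ld2, at 22 to 109 counts per library, was at 0.556 to 1.05 CPM in eGFP supernatant and 1.42 to 2.37 CPM with Ifnb1eGFP supernatant. Its log2 fold change was 1.24 (adjusted p = 0.001). Cd300ld4 was at 2.99 to 4.52 CPM in eGFP supernatant and 12 to 16.2 CPM with Ifnb1eGFP supernatant (log2 fold change 1.93, adjusted p = 9.51e-07). Cd300ld5 spread widely within groups, from 0.413 to 8.75 CPM in the untreated control alone, and its log2 fold change of 1.69 had a 95% interval of 0.39 to 2.99 (adjusted p = 0.0303). Without eGFP supernatant replicate 2 it was no longer called (1.85, adjusted p = 0.0557).

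How reads were divided among these genes bears on their values. The coding sequences of Cd300ld3, Cd300ld4 and Cd300ld5 are 99.5% to 99.9% identical, and of the 75-base words in the canonical transcript only 18.5% in Cd300ld3, 9.64% in Cd300ld4 and 0% in Cd300ld5 are found in no other gene, so that the split between these 3 is uncertain. The scarce Cd300ld2 shares 22.2% of its 75-base words with Cd300ld3 to Cd300ld5, and whether its rise is separate from theirs was not tested. Summed, Cd300ld3 to Cd300ld5 were at 347 to 368 CPM in eGFP supernatant and 633 to 663 CPM with Ifnb1eGFP supernatant. Most of this sum was assigned to Cd300ld3, with means of 346 and 601 CPM. Cd300ld is distinct from Cd300ld3 to Cd300ld5. Its coding sequence is 77.3% identical to that of Cd300ld3, and 97.7% of its 75-base words are its own, the rest being shared with Cd300lf. For the other members this share was 98.1% (Cd300a), 96.7% (Cd300lf), 94.1% (Cd300c2) and 100% (Cd300e and Cd300lb). The read length is not given in the sources used here. With 50-base words, 96.1% of those of Cd300ld were its own and the rest were shared with Cd300lf and with Cd300ld2 to Cd300ld5. At that length 93% of the words of Cd300lf were its own, and the shared words were found in 5 other CD300 genes and in 429 further genes.

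When Cd300ld to Cd300ld5 were added into a single row, a choice made after seeing the data, the opposite movements nearly cancelled with Ifnb1eGFP supernatant. The sum was 1274, 1245 and 1229 CPM in eGFP supernatant and 1284, 1209 and 1186 CPM in Ifnb1eGFP supernatant, which overlap (log2 fold change -0.03, 95% interval -0.12 to 0.07, adjusted p = 0.622). For rIFNβ the sum was 1374 to 1439 CPM in the untreated control and 1210 to 1279 CPM with rIFNβ (log2 fold change -0.16, adjusted p = 0.00839). In these counts, which are not scaled by length, the makeup of the sum changed more than its size. The exon length is 2646 bases for Cd300ld and 852 for Cd300ld3, so Cd300ld weighs more in the sum. Per kilobase, Cd300ld went from 336 to 217 CPM per kb with Ifnb1eGFP supernatant and Cd300ld3 from 406.5 to 706. With rIFNβ they went from 378 to 216 and from 461 to 751 CPM per kb. The near cancellation therefore holds for counts and not per length. Over all 12 CD300 genes, whose exon lengths run from 852 to 5149 bases, the counts were also summed without scaling by length. This sum was 2208 ± 31.5 CPM (SD, n = 3) in eGFP supernatant and 2351 ± 103 CPM with Ifnb1eGFP supernatant. It was 2364 ± 45 CPM in the untreated control and 2354 ± 45.8 CPM with rIFNβ. Longer genes weigh more in it, so it is not a total per length.

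**Figure D3:**
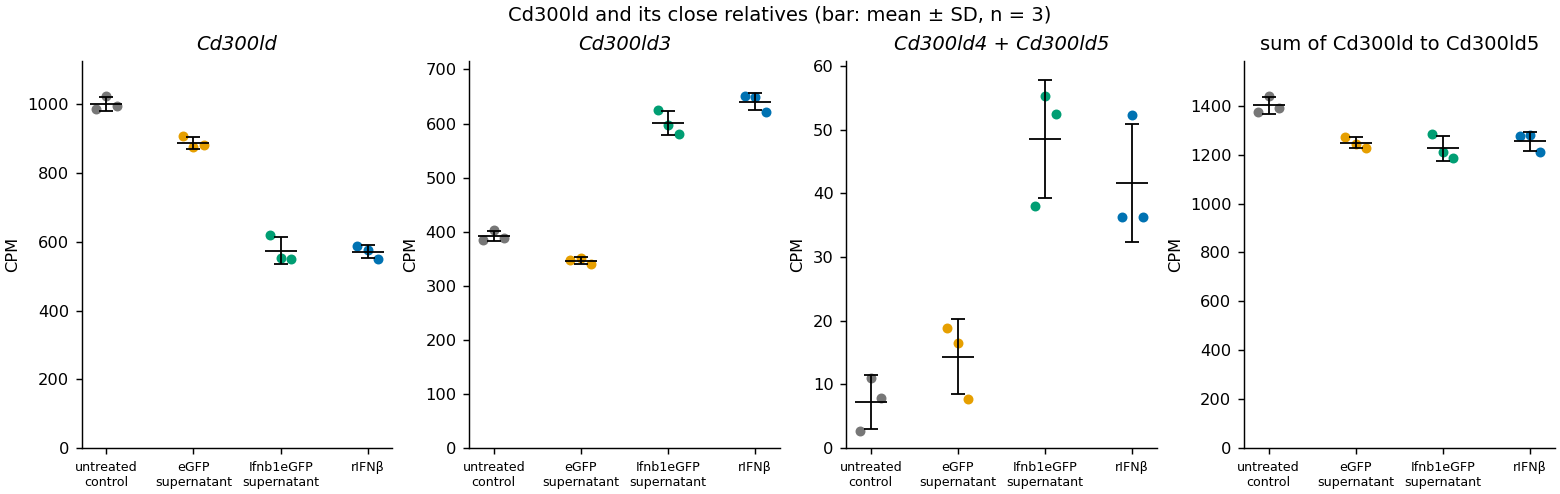
CPM (linear axes from 0) of Cd300ld, Cd300ld3, the sum of Cd300ld4 and Cd300ld5, and the sum of Cd300ld to Cd300ld5 in each library, with the mean and SD of 3 libraries. Cd300ld is lower and Cd300ld3 higher with IFNβ, whereas the summed row lies between 1186 and 1439 CPM in all 12 libraries.

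To ask what the supernatant itself changed, the eGFP supernatant was compared with the untreated control. None of the 6 members was called by edgeR, where 0.299% of all genes were, and 2 members (Cd300lf and Cd300ld) had an unadjusted p under 0.05, as 8% of all genes did. Cd300lf was 1.65-fold higher (95% interval 1.34 to 2.05), with 3 eGFP supernatant libraries above the 3 control libraries. The adjusted p was 0.0719 and ran from 0.00043 to 0.297 over 12 alternatives. DESeq2 (adjusted p = 0.00043), the fit with no filter on low counts (0.00494) and the replicate block (0.0482) called it. Replicate 2, the library with raised interferon-stimulated genes, had the highest Cd300lf level of the eGFP supernatant, and without it the log2 fold change fell from 0.73 to 0.57 (adjusted p = 0.211), with both remaining libraries still above the control. Cd300ld was 0.887-fold (0.821 to 0.959), its libraries also did not overlap, and its adjusted p was 0.291. The Cd300a libraries did not overlap either, at 214 to 218 CPM against 225 to 234 CPM (0.949-fold, 0.893 to 1.01, adjusted p = 0.711). Groups that do not overlap were seen for 7.96% of genes in the higher and 7.52% in the lower direction.

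Whether tumor-derived IFNβ differed from rIFNβ was addressed by comparing Ifnb1eGFP supernatant with rIFNβ directly. No member was called by edgeR, nor by DESeq2 or any other alternative, beside 0.16% of all genes in the main test. Cd300e had an unadjusted p of 0.00128 and was the single member under 0.05 without adjustment, where 8.57% of genes were. It was 0.644-fold (95% interval 0.513 to 0.807) with Ifnb1eGFP supernatant against rIFNβ and its libraries did not overlap, as those of 4.58% of genes in the lower and 8.22% in the higher direction, but its adjusted p was 0.226. For the other members the intervals were narrow and included 1. The fold was 0.977 (0.919 to 1.04) for Cd300a, 0.94 (0.807 to 1.09) for Cd300lf, 1.01 (0.93 to 1.09) for Cd300ld, 1.04 (0.966 to 1.12) for Cd300lb and 1.08 (0.999 to 1.17) for Cd300c2.

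Averaged over both IFNβ states, no member was called by edgeR for the supernatant effect, beside 0.905% of all genes. Cd300e had a log2 difference of -0.44 (95% interval -0.72 to -0.16, edgeR adjusted p = 0.183). That of Cd300lf was 0.32 (0.13 to 0.51, edgeR adjusted p = 0.15, and 0.0274 by DESeq2). In all, 4 members had an unadjusted p under 0.05, as 11.4% of genes did. The interaction tested whether the IFNβ effect differed between supernatant and medium. It called 0% of all genes by edgeR and 12 genes by DESeq2, and 661 genes (4.4%) had an unadjusted p under 0.05, among them Cd300lf and Cd300ld. For Cd300lf the log2 IFNβ effect was 0.82 smaller in supernatant (interaction -0.82, 95% interval -1.19 to -0.44, unadjusted p = 0.000585, adjusted p = 0.67, and 0.0267 by DESeq2). Cd300lf levels with IFNβ overlapped, and the levels without IFNβ differed as given above. Without eGFP supernatant replicate 2 the interaction was -0.65 (adjusted p = 1). For Cd300ld the interaction was 0.18 (95% interval 0.02 to 0.34, adjusted p = 0.926).

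**Figure D4:**
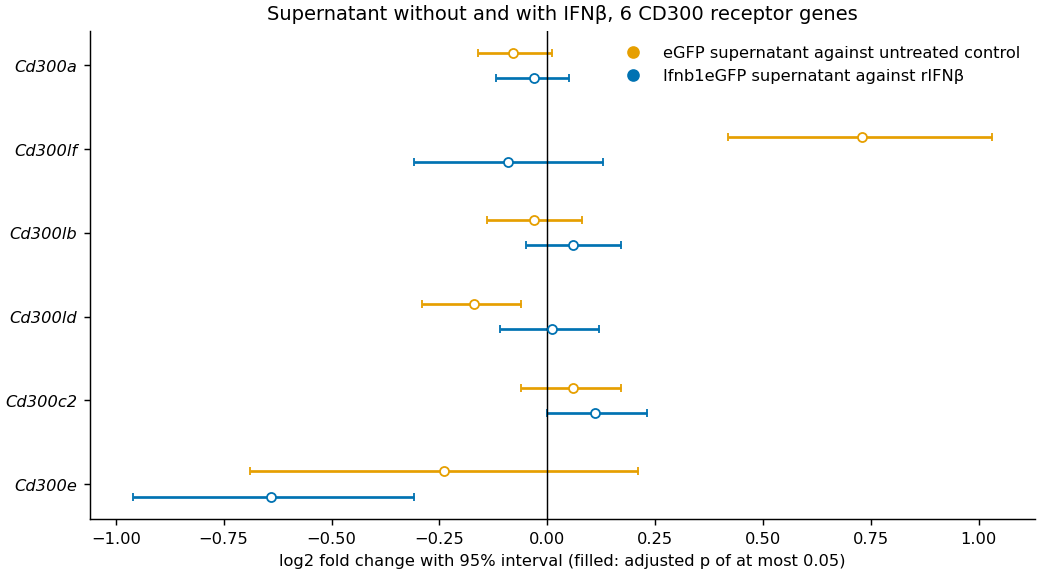
Log2 fold change with 95% interval for the 6 members in the eGFP supernatant against the untreated control and in the Ifnb1eGFP supernatant against rIFNβ. All points are open, so no member was called, and the values farthest from 0 are those of Cd300lf without IFNβ (0.73) and Cd300e with IFNβ (-0.64).

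The adaptors of the short-tailed receptors stayed close to their control levels. Tyrobp, encoding DAP12, was 966 to 983 CPM in eGFP supernatant and 905 to 932 CPM with Ifnb1eGFP supernatant (log2 fold change -0.08, adjusted p = 0.0767), and fell slightly with rIFNβ (-0.10, adjusted p = 0.0314). Fcer1g was 466 to 491 CPM and 476 to 502 CPM (log2 fold change 0.04, adjusted p = 0.475). Hcst, encoding the adaptor DAP10, was below 9 CPM in every library (-0.13, adjusted p = 0.393). The phosphatases of the inhibitory receptors parted. Ptpn6, encoding SHP-1, rose 1.72-fold, from 177 ± 7.63 to 305 ± 5.57 CPM (SD, n = 3, edgeR adjusted p = 3.62e-08), as did Inpp5d, encoding the lipid phosphatase SHIP-1 (1.5-fold, adjusted p = 1.1e-06). Ptpn11, encoding SHP-2, was 121 to 128 CPM and 116 to 121 CPM (log2 fold change -0.09, adjusted p = 0.0846), and fell with rIFNβ (-0.17, adjusted p = 0.00404).

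Of 22 signalling partners tested, 11 rose and 5 fell with Ifnb1eGFP supernatant, and 11 rose and 8 fell with rIFNβ (72.7% and 86.4% called, beside 55.1% and 55.3% of all genes), with median log2 fold changes of 0.21 and 0.16. Lyn, a Src family kinase that phosphorylates both activating and inhibitory motifs, rose 3.83-fold, from 171 to 189 CPM to 656 to 719 CPM. Fyn, another Src family kinase, fell to 0.59-fold, and Vav1, a guanine nucleotide exchange factor, rose 1.51-fold. Il4ra, the IL4 receptor chain through which the polarizing cytokine acts, rose 1.85-fold (adjusted p = 8.97e-06). None of the 22 was called in the 4 other comparisons by edgeR.

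Other paired receptors of myeloid cells moved in both directions. Of 30 such genes 27 were tested, of which 15 rose and 7 fell with Ifnb1eGFP supernatant and 14 rose and 7 fell with rIFNβ. These are 81.5% and 77.8% called, beside 55.1% and 55.3% of all genes, and the median log2 fold changes were 0.30 and 0.17. Treml2, a TREM-like receptor, rose 14.5-fold, from 0.527 to 0.731 CPM to 7.18 to 10.6 CPM. Sirpb1a, a DAP12-coupled SIRP receptor, rose 6.56-fold, from a mean of 1.21 CPM in eGFP supernatant to 7.93 CPM with Ifnb1eGFP supernatant. Pilrb1 and Pilrb2, DAP12-coupled receptors, rose 2.91-fold and 2.54-fold. Between the same conditions their means went from 2.8 to 8.2 CPM and from 3.6 to 9.1 CPM, so these genes were scarce. Pilrb1 was also the gene of this list called for the averaged supernatant effect (log2 difference -0.34, adjusted p = 0.0475), and was not called without eGFP supernatant replicate 2 (-0.31, adjusted p = 0.127). The Pilrb and Sirpb1 genes have close paralogs, and the division of their reads is uncertain.

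Genes for recognising and bridging exposed lipids, apart from the CD300 members themselves, were mostly lower. Of 15 listed genes 12 were tested, and 3 rose and 9 fell in each IFNβ comparison (100% called, median log2 fold changes -0.98 and -0.99). Of all genes 55.1% and 55.3% were called, 25% and 24.6% in the lower direction. Mfge8, a secreted bridge between phosphatidylserine and integrins, was 780 to 1097 CPM in eGFP supernatant and 109 to 150 CPM with Ifnb1eGFP supernatant (log2 fold change -2.93, adjusted p = 4.04e-08). Itgb3, an integrin chain bound by Mfge8, fell from 121 to 130 CPM to 18.4 to 22.2 CPM. Cd36, a scavenger receptor, fell to 0.48-fold and Tyro3, a TAM receptor kinase, to 0.223-fold. Tyro3 was scarce, with means of 3.21 CPM in eGFP supernatant and 0.714 CPM with Ifnb1eGFP supernatant. The 3 that rose, named here after their values were seen, were Axl (2.36-fold, adjusted p = 0.000558) and Mertk (1.25-fold, adjusted p = 0.0111), the other TAM kinases, and the integrin chain Itgav (1.87-fold, adjusted p = 1.05e-06). Among the CD300 members that bind exposed lipids, Cd300a and Cd300lf rose and Cd300lb fell over the same libraries.

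Genes around the cluster did not share a direction. Of 23 non-CD300 genes listed within 250 kb of the cluster or inside it, 14 were tested, and 4 rose and 6 fell with Ifnb1eGFP supernatant (71.4% called, median log2 fold change -0.15), whereas 6 rose and 3 fell with rIFNβ (64.3% called, median 0.04), beside 55.1% and 55.3% of all genes called. Without eGFP supernatant replicate 2, 4 rose and 4 fell with Ifnb1eGFP supernatant among 15 tested. Gprc5c, an orphan G protein-coupled receptor, fell from 52.1 ± 1.97 to 24.4 ± 1.25 CPM (SD, n = 3). Btbd17 was at 0.341 to 0.783 CPM in eGFP supernatant and at most 0.0253 CPM with Ifnb1eGFP supernatant. Gm11699, a pseudogene on the strand opposite to Cd300lb and within it, had at most 66 counts and a log2 fold change of -0.64 (adjusted p = 0.0172).

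**Figure D5:**
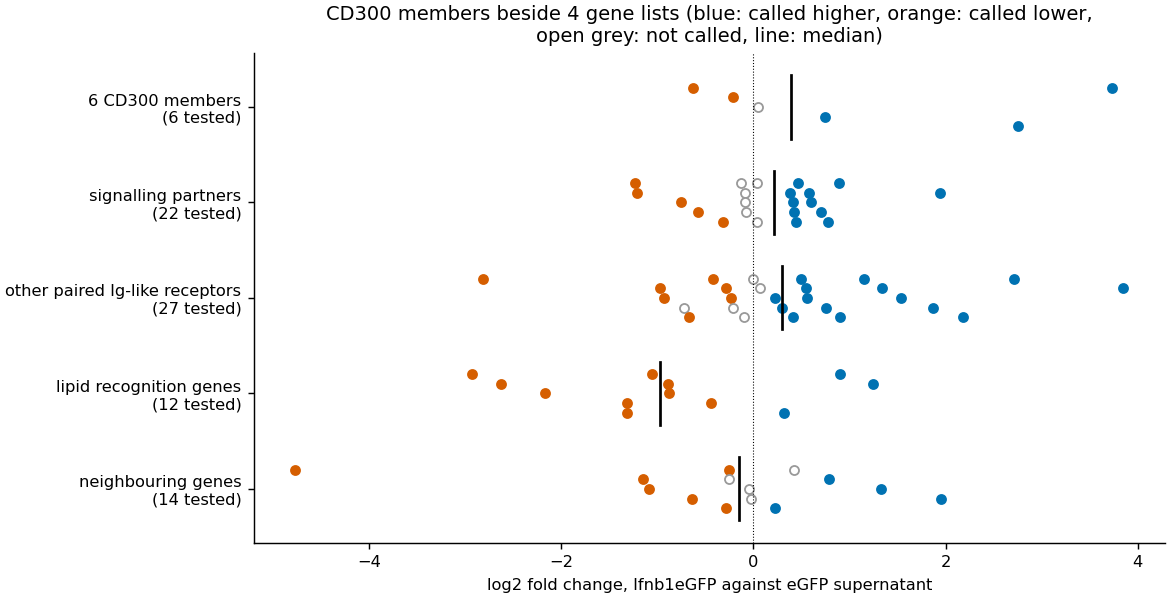
Log2 fold change of each tested gene in Ifnb1eGFP against eGFP supernatant for the 6 CD300 members, 22 signalling partners, 27 other paired receptors, 12 lipid recognition genes and 14 neighbouring genes, with a line at each median. The median is -0.98 for the lipid recognition genes and 0.40 for the CD300 members, which span -0.63 to 3.73.

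The members' levels were also set beside all other tested genes over the 12 libraries, as a description, since the libraries share their conditions and genes that respond to IFNβ are alike in this measure. By Pearson's r of log2 CPM, the genes most like Cd300lf were Pxk (0.999), the costimulatory ligand Cd86 (0.998) and Terf1 (0.998). For Cd300a they were Gm53692, Lacc1 and Tmem171 (0.998 each), and for Cd300e Serpinb6b, Tmem171 and Pilrb1 (0.995 to 0.996). For Cd300ld they were Hsp90ab1, Usp14 and Arl6ip5 (0.996 to 0.998), and for Cd300lb Nfe2l2, Ccdc88a and Arih1 (0.985 to 0.991). Cd300c2 had the lowest values, with Ramac (0.949), the scavenger receptor Msr1 (0.948) and Txnip (0.931). Ranked by Spearman's rho instead, Tmem171 remained among the 3 nearest genes of Cd300e, Usp14 and Arl6ip5 of Cd300ld, and Txnip and Ramac of Cd300c2, whereas none of the 3 remained for Cd300a, Cd300lb and Cd300lf.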

How the data were processed

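RNA from 12 BMDM cultures was prepared by the submitters with the TruSeq Stranded Total RNA kit and sequenced on a NextSeq. The values the authors deposited are expected counts per Ensembl gene, estimated with RSEM 1.3.3 against a genome that the methods name by 2 joined build names, GRCm39 and mm10. They are not scaled, 12% are not whole numbers and no low counts were removed. The counts were rounded. Of 56748 listed identifiers 56017 were found in GENCODE on GRCm39, from which positions, lengths and promoter sequences were taken.

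Genes were kept by filterByExpr (15033 of 30347 with a count), scaled by TMM and fitted in edgeR 4.0.16 with 1 quasi-likelihood model over all 12 libraries and 6 contrasts. P-values were adjusted by Benjamini-Hochberg over all tested genes, and a gene was called at an adjusted p of at most 0.05. Standard errors and 95% intervals were derived from the fold change and its F statistic. The likeness of genes was computed on log2 CPM with a prior count of 2. Libraries of a condition differed by more than counting noise (chi-square of 5.52 to 55.8 per degree of freedom over 12 pairs), and p-values measure the spread between these libraries. Alternatives were RLE factors, DESeq2 1.42.0, no filter, the replicate number as a block, the compared conditions alone, each library left out, totals without scaling factors and Cd300ld to Cd300ld5 summed, the last 2 chosen after seeing the data, as was the refit of the lists without eGFP supernatant replicate 2. The procedure was tested on simulated counts. The members and the gene lists were chosen with earlier results of these data known. Named genes were the 6 members, the other CD300 genes tested, fixed adaptors and phosphatases, the genes with the smallest adjusted p in each list, overlapping neighbours, and the 3 genes most like each member. Protein sequences were not used here.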

Additional observations from a re-analysis of the deposited data

How the results depend on the processing

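The 5 members called in each IFNβ comparison kept their direction and their call in all 120 refits of these 10 values in which the genes stayed as deposited, and leaving out each library in turn gave 5 called members in both comparisons. The row of Cd300ld to Cd300ld5 summed, a different quantity from Cd300ld, was not called with Ifnb1eGFP supernatant (log2 fold change -0.03). It was called lower with rIFNβ (log2 fold change -0.16, edgeR adjusted p = 0.00839). In the eGFP supernatant against the untreated control the number of called members was 0, and it was 1 (Cd300lf) with DESeq2, with no filter on low counts and with the replicate block. It was 1 with DESeq2 for the averaged supernatant effect and 1 for the interaction, again Cd300lf, and the cause was not tested. Leaving out single libraries gave 0 called members in each of these and in Ifnb1eGFP supernatant against rIFNβ. Over all genes, calls in eGFP supernatant against the untreated control went from 45 to 204 with DESeq2, 75 with no filter, 122 with the replicate block and 22 with the compared conditions alone, and to 16 to 32 without single libraries (16 without eGFP supernatant replicate 2). Those in Ifnb1eGFP supernatant against rIFNβ went from 24 to 117, 41, 48 and 2, to 1051 without Ifnb1eGFP supernatant replicate 2 and to between 4 (without rIFNβ replicate 1) and 23 without other libraries. The averaged supernatant effect went from 136 to 345 with DESeq2, 252 with the block, 531 without Ifnb1eGFP supernatant replicate 2 and 55 (without rIFNβ replicate 1) to 132 without other libraries. Libraries with the same number deviated together weakly (correlations of 0.0582 to 0.252 over 18 pairs, 13 over 0.1), and 12 of 12 libraries correlated best with their own number, a hint from the data and not from the design. No replicate block changed another member's call. With the longest transcript as length, levels per kb moved by more than 1 SD for Cd300a (49.2, 46.7, 78 and 79.8 for the control, the eGFP and the Ifnb1eGFP supernatant and rIFNβ), Cd300c2 (255, 265, 274 and 253) and Cd300lf (0.68, 1.12, 14.9 and 15.9). The comparison of protein sequences could not be run. Counts of 25 to 41 per library limit Cd300e without IFNβ.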
